A study of Homo sapiens with 9 samples.

Results

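NF-kB transcription factors are dimers of the subunits RELA, RELB, REL and the products of NFKB1 and NFKB2. In unstimulated cells inhibitors of the IkB family, NFKBIA among them, hold the dimers in the cytoplasm; receptors for tumour necrosis factor, interleukin 1 and related ligands activate the IkB kinase complex, which marks the inhibitors for degradation. The freed dimers induce genes that include their own inhibitors, NFKBIA and the ubiquitin-editing enzyme TNFAIP3, so the pathway limits itself. In lung adenocarcinoma with a mutant EGF receptor, NF-kB signalling is known as a survival route during receptor inhibition.

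Transcripts of 10 genes of this system were followed, taken by symbol from the deposited gene table: the 4 subunits NFKB1, NFKB2, RELA and RELB, and 6 feedback and target genes, NFKBIA, TNFAIP2, TNFAIP3, BIRC3, TNIP1 and SOD2. Their gene IDs in the same order are 4790, 4791, 5970, 5971, 4792, 7127, 7128, 330, 10318 and 6648. All 10 are among the 27059 genes of the table, with 669 counts or more in every library, and all 10 passed the filter on low counts that left 18540 genes to test. The libraries are RNA sequencing of PC9/GR, a lung adenocarcinoma line with acquired resistance to the EGF receptor kinase inhibitor gefitinib. There were 3 libraries of PC9/GR-sh1-HUMT and 3 of PC9/GR-sh2-HUMT, which carry different short hairpin RNAs meant to deplete HUMT, a long noncoding RNA, and 3 of PC9/GR-shNC, the control hairpin. The treatment protocol in the labels writes HUMT, as here, but the titles of 5 of the 6 hairpin libraries have HUNT. All groups share the resistant background, no further treatment is named for any of them, and the labels do not say whether a group is 1 clone. Nothing in the labels says that libraries of a group came from separate cultures, and the p-values therefore cover the spread of these samples alone, which may be technical.

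Library totals ran from 21891060 to 22159921 estimated counts, with a common biological coefficient of variation of 7.02% within groups. The table's headers name A549, another lung adenocarcinoma line, and not PC9/GR, and call the hairpin arms Si_1 and Si_2; the design text of the series concerns SNHG1 in retinoblastoma cells. Only the sample labels say which cells and hairpins these were. LINC00857, the gene for which RefSeq lists HUMT as a synonym, was at 9.17, 9.58 and 10.1 CPM (counts scaled to library size) in sh1-HUMT libraries, at 8.75, 9.60 and 8.50 CPM in sh2-HUMT libraries and at 9.36, 9.85 and 8.51 CPM in shNC libraries. Its log2 fold changes against shNC were 0.06 (95% interval -0.14 to 0.25) and -0.05 (-0.24 to 0.15), so the target RNA was not measurably lower under either hairpin, and a group name stands only for what the labels say. The summed level of 6 epithelial markers, mostly the keratins KRT7, KRT8 and KRT18, ran from 4216 to 4500 CPM in sh1-HUMT, from 4327 to 4370 CPM in sh2-HUMT and from 5386 to 5621 CPM in shNC libraries. Of 6 leukocyte markers 4 were listed, and they summed to 49.4 to 52.1, 52.9 to 53.9 and 62.5 to 66.5 CPM in the same order of groups, with CD68 and CD14 most abundant and PTPRC, the leukocyte-defining one, at a mean of 0.106 CPM. The sums of 6 fibroblast and endothelial markers were 22.4 to 24.4, 26.0 to 27.5 and 17.5 to 20.9 CPM, nearly all of it COL1A1. All 3 sums moved with the hairpin groups, but not every marker moved with its sum. By the edgeR test below (adjusted p under 0.05), 1 epithelial marker was higher and 5 lower in sh1-HUMT, and 1 higher and 4 lower in sh2-HUMT. Of 3 leukocyte markers tested, 1 was lower and 0 higher under each hairpin, with median log2 fold changes of -0.1 and 0.2. Of 3 fibroblast and endothelial markers tested, 2 were higher under each. Over all genes tested, 31.9% and 32.5% were past that threshold. DCN, a fibroblast marker, was at 0 in 8 of the 9 libraries, and no other marker in the table was at 0 in any library. The markers' part in the results that follow was not tested. In bulk RNA, fewer cells of a type and less RNA per cell cannot be told apart.

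The windows before the start sites of these genes are shown first, because genes that carry a match to the NF-kB motif turned out both higher and lower in the hairpin libraries. RefSeq windows (GRCh38.p14) were found for 9 of the 10 genes, all but RELB, with 17 windows in all since several genes have more than 1 start. The 250 bases before each start were searched on both strands for the NF-kB motif and for its stricter form (GGGA, any 2 bases, TTCC), and overlapping matches were kept. Among these 9 genes, 6 had a match (NFKB1, NFKB2, NFKBIA, TNFAIP3, BIRC3 and TNIP1) and 5 had the stricter form (all of these except BIRC3). Over all 27305 genes with a window, 11.8% had a match and 1.73% the stricter form. Genes with more windows have more room for a match. By window, 7 of the 17 had a match, against 9.96% of all 35116 windows, and 5 the stricter form, against 1.4%. The 10 genes were picked as parts of this pathway, so these shares are a description and no test of enrichment. Windows of RELA, TNFAIP2 and SOD2 do not hold these letters. Each sequence runs 5′ to 3′ on the strand of its gene, with matches in capitals and 20 bases on either side.
NFKB1, chr4:102501290-102501339, plus strand: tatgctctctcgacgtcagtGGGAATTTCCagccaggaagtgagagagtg
NFKB2, chr10:102394451-102394529, plus strand: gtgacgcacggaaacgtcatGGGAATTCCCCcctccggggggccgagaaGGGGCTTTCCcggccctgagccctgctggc
NFKBIA, chr14:35404801-35404850, minus strand: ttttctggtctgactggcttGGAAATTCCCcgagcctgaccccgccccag
TNFAIP3, chr6:137867172-137867233, plus strand: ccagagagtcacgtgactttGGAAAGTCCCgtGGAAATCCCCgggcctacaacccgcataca
BIRC3, chr11:102317265-102317378, plus strand: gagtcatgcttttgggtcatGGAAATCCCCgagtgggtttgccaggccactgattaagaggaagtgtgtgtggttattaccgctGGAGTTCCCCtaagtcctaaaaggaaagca
TNIP1, chr5:151081047-151081096, minus strand: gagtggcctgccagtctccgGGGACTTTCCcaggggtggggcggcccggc
Of these 6 genes, NFKB2, NFKBIA and TNIP1 were higher and NFKB1, TNFAIP3 and BIRC3 lower in the hairpin libraries. In NFKB2 the first run of capitals holds 2 overlapping matches, and no match printed for this gene is of the stricter form. Another of its start sites has further matches that are not printed. The stricter match of NFKB2 is among them and begins 21 bases before that start. The matches begin 49 bases before the start in NFKB1, 81 in NFKBIA, 42 in TNIP1, 67 and 55 in TNFAIP3, and 199 and 135 in BIRC3. A match describes letters only; no binding was measured.

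The NF-kB genes did not move as a block. Against shNC, 8 of the 10 were called in sh1-HUMT and the same 8 in sh2-HUMT (edgeR quasi-likelihood test over all genes, Benjamini-Hochberg adjusted p under 0.05, no minimum fold), each in the same direction under both hairpins. NFKB2, NFKBIA, TNFAIP2, TNIP1 and SOD2 were higher, NFKB1, TNFAIP3 and BIRC3 were lower, and RELA and RELB were not called. TNFAIP3 had the largest difference of the 10, at 50.3% of the control mean in sh1-HUMT and 49.7% in sh2-HUMT, and TNFAIP2 and SOD2 had the largest rises. The background is high: 31.9% of all genes tested were called in sh1-HUMT (15.7% higher and 16.3% lower) and 32.5% in sh2-HUMT (15.9% and 16.5%). Among the 6491 genes of at least 30 CPM, a level that all 10 reach, the shares were 52.3% and 52.2%, and 25.1% of all genes tested were called the same way in both comparisons. The median log2 fold change of the 10 was 0.03 in each comparison, against -0.001 in sh1-HUMT and -0.0 in sh2-HUMT over all genes tested. Both comparisons use the same 3 shNC libraries, so the likeness of their results is not independent.

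**Figure D1:**
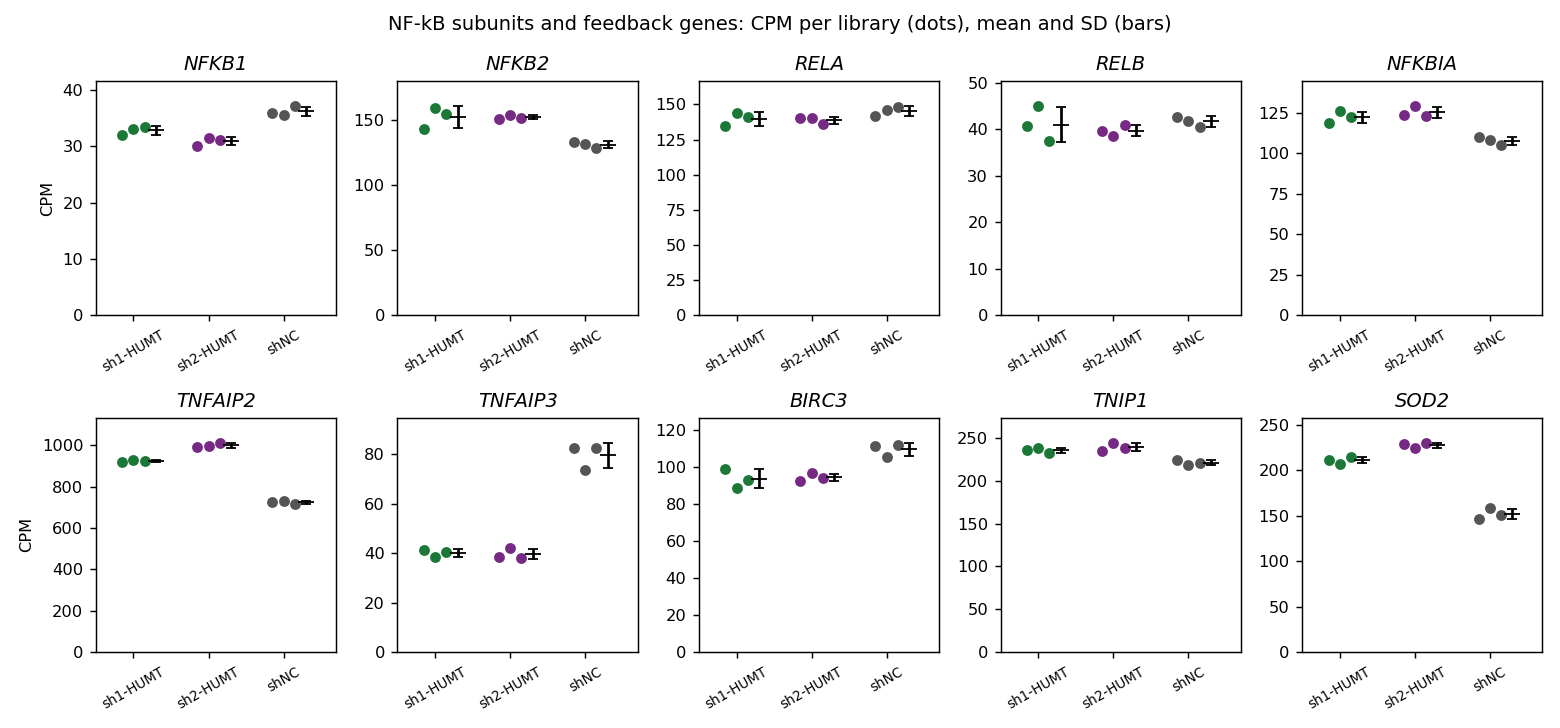
CPM on the vertical axis (from 0, one scale per gene) for each of the 10 genes in sh1-HUMT, sh2-HUMT and shNC libraries; dots are single libraries and the bars beside them the mean and SD of 3. TNFAIP3 lies between 38.2 and 41.9 CPM in the 6 hairpin libraries and between 73.6 and 82.5 CPM in the shNC libraries, while TNFAIP2 and SOD2 are higher in all 6 hairpin libraries than in any shNC library.

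Of the subunits, NFKB2 was higher and NFKB1 lower. NFKB2 encodes the precursor that is processed to the partner of RELB in the non-canonical branch. It stood at 143.0, 158.9 and 154.5 CPM in sh1-HUMT libraries, at 150.7, 153.7 and 151.3 CPM in sh2-HUMT libraries and at 133.2, 131.6 and 128.0 CPM in shNC libraries. Every hairpin library lay above every shNC library. The means were 152.1 ± 8.19, 151.9 ± 1.59 and 130.9 ± 2.68 CPM (SD, n = 3 each), with log2 fold changes of 0.22 (SE 0.037, adjusted p = 0.000782) and 0.21 (SE 0.037, adjusted p = 0.0008). NFKB1 encodes the precursor of the partner of RELA in the classical dimer. It was at 32.0, 33.0 and 33.4 CPM in sh1-HUMT libraries, at 30.02, 31.5 and 31.1 CPM in sh2-HUMT libraries and at 35.8, 35.6 and 37.1 CPM in shNC libraries, again without overlap between hairpin and control libraries. Its log2 fold change was -0.23 (SE 0.042, adjusted p = 0.00123) in sh2-HUMT and -0.14 (SE 0.041, adjusted p = 0.021) in sh1-HUMT. The call in sh1-HUMT was lost without shNC replicate 1 (-0.15, adjusted p = 0.0504), without shNC replicate 3 (-0.12, adjusted p = 0.0874), without sh1-HUMT replicate 1 (-0.12, adjusted p = 0.0903) and with DESeq2 (-0.14, adjusted p = 0.0591).

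RELA and RELB, which are among the Rel subunits with their own activation domains, were not called. RELA was at 134.5, 143.8 and 140.8 CPM in sh1-HUMT libraries, at 140.6, 140.1 and 136.1 CPM in sh2-HUMT libraries and at 141.6, 145.8 and 148.5 CPM in shNC libraries. In CPM the sh1-HUMT libraries overlapped the controls, and the sh2-HUMT libraries lay just below them. RELA on the deposited values per transcript length, read as FPKM, overlapped the controls in sh2-HUMT too (45.1 to 46.9 against 45.7 to 47.8). Its mean FPKM in sh1-HUMT was 47.3, against 46.9 in shNC. Its log2 fold changes were -0.06 (95% interval -0.13 to 0.01) and -0.06 (-0.13 to 0.0), with adjusted p of 0.201 and 0.144; corrected for GC content and length, the value in sh2-HUMT was -0.10 (adjusted p = 0.0353). The noncoding gene AP001362.2 lies on the opposite strand over RELA. No source says that counting used strand, and the part of its reads in the RELA values was not tested. RELB was at 40.6, 45.0 and 37.4 CPM in sh1-HUMT libraries, at 39.7, 38.6 and 40.9 CPM in sh2-HUMT libraries and at 42.7, 41.8 and 40.5 CPM in shNC libraries. The groups overlapped, and the intervals of its log2 fold change, -0.15 to 0.11 in sh1-HUMT and -0.20 to 0.06 in sh2-HUMT, leave room for small changes in either direction. In CPM, 8 of the 10 genes in sh1-HUMT and 9 in sh2-HUMT did not overlap the controls, against 44.3% and 46.5% of all genes tested. The extra gene in sh2-HUMT was RELA.

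The inhibitors that feed back on the pathway went opposite ways. NFKBIA, the inhibitor that NF-kB resynthesises to end its own response, was at 118.9, 125.9 and 122.6 CPM in sh1-HUMT libraries, at 123.8, 129.2 and 123.1 CPM in sh2-HUMT libraries and at 110.1, 108.1 and 105.2 CPM in shNC libraries. All 6 hairpin libraries were above all 3 controls, with log2 fold changes of 0.18 (SE 0.033, adjusted p = 0.00112) and 0.22 (SE 0.033, adjusted p = 0.00032). TNFAIP3, which edits ubiquitin chains on signalling proteins upstream of the IkB kinases and so ends activation, was at 41.3, 38.3 and 40.3 CPM in sh1-HUMT libraries, at 38.5, 41.9 and 38.2 CPM in sh2-HUMT libraries and at 82.5, 73.6 and 82.3 CPM in shNC libraries. The highest hairpin library was far below the lowest control. TNFAIP3 was 1.99-fold lower in sh1-HUMT (log2 fold change -0.99, SE 0.055, adjusted p = 9.13e-08) and 2.01-fold lower in sh2-HUMT (-1.01, SE 0.055, adjusted p = 6.94e-08). Of all genes tested, 1.15% in sh1-HUMT and 1.03% in sh2-HUMT were called lower by at least as much. An antisense gene, AL357060.1, overlaps TNFAIP3 in GENCODE v29 and no source says that counting used strand, so the pair's reads cannot be told apart.

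TNIP1 binds ubiquitin and assists TNFAIP3. It was at 236.4, 237.8 and 232.8 CPM in sh1-HUMT libraries, at 235.3, 244.4 and 238.9 CPM in sh2-HUMT libraries and at 224.4, 218.7 and 220.3 CPM in shNC libraries. Groups did not overlap, but the difference is small, with log2 fold changes of 0.09 (SE 0.025, adjusted p = 0.0134) and 0.12 (95% interval 0.06 to 0.17, adjusted p = 0.00344); with the correction for GC content and length the call in sh2-HUMT was lost (0.06, adjusted p = 0.0641). BIRC3, a ubiquitin ligase of the inhibitor of apoptosis family that acts at tumour necrosis factor receptors, was at 99.0, 88.9 and 93.2 CPM in sh1-HUMT libraries, at 92.4, 96.5 and 94.2 CPM in sh2-HUMT libraries and at 111.2, 105.4 and 111.8 CPM in shNC libraries. All 6 hairpin libraries were below the controls, and BIRC3 fell by 0.22 on the log2 scale in sh1-HUMT (SE 0.041, adjusted p = 0.00132) and by 0.21 in sh2-HUMT (adjusted p = 0.00171).

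**Figure D2:**
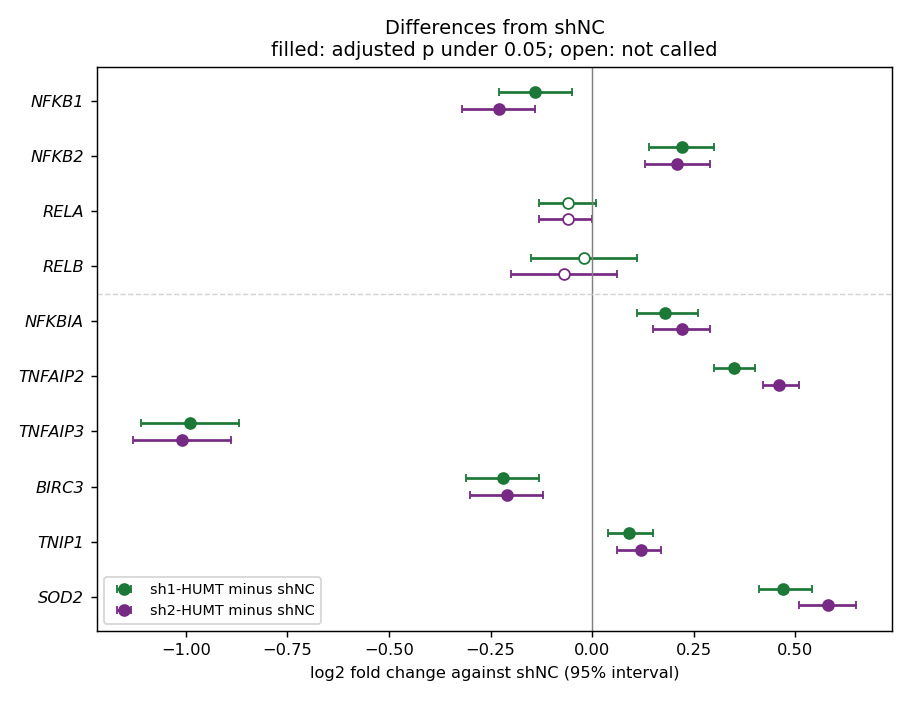
Log2 fold change against shNC on the horizontal axis with its 95% interval for each gene, sh1-HUMT above sh2-HUMT; filled points have an adjusted p under 0.05, and the dashed line parts the subunits from the feedback and target genes. TNFAIP3 stands alone near -1, SOD2 and TNFAIP2 lie highest at 0.35 to 0.58, and the other 7 lie between -0.23 and 0.22.

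The remaining target genes had the largest rises. TNFAIP2, a gene induced by tumour necrosis factor whose product promotes membrane protrusions, was at 920.6, 929.6 and 924.1 CPM in sh1-HUMT libraries, at 990.3, 996.7 and 1012.2 CPM in sh2-HUMT libraries and at 726.0, 733.0 and 717.6 CPM in shNC libraries. The 3 groups were fully apart, sh2-HUMT highest. The rise was 1.38-fold in sh2-HUMT (log2 fold change 0.46, SE 0.021, adjusted p = 1.46e-08) and 1.27-fold in sh1-HUMT (0.35, SE 0.021, adjusted p = 2.05e-07). SOD2, the manganese superoxide dismutase of mitochondria, was at 211.4, 207.3 and 214.6 CPM in sh1-HUMT libraries, at 228.4, 223.9 and 229.4 CPM in sh2-HUMT libraries and at 146.4, 158.3 and 151.2 CPM in shNC libraries. It showed the same order of groups without overlap, 1.495-fold higher in sh2-HUMT (0.58, 95% interval 0.51 to 0.65, adjusted p = 5.03e-08) and 1.39-fold higher in sh1-HUMT (0.47, SE 0.031, adjusted p = 3.31e-07). SOD2 shares exon positions with WTAP and ACAT2 on the opposite strand and with the noncoding SOD2-OT1 on its own strand. WTAP averaged 47.1 ± 0.746, 45.3 ± 2.93 and 54.0 ± 1.42 CPM in sh1-HUMT, sh2-HUMT and shNC libraries (SD, n = 3 each), lower under both hairpins. ACAT2 averaged 11.01 ± 2.43, 9.13 ± 0.852 and 5.14 ± 1.11 CPM in the same groups, higher under both. Since no source says that counting used strand, reads of shared positions cannot be told apart, and their part in the SOD2 values was not tested.

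Between the hairpins, edgeR called 0 of the 10 genes, against 0.286% of all genes tested, or 53 genes. At an unadjusted p under 0.05 in edgeR there were 2 of the 10, TNFAIP2 and SOD2, against 11.8% of all genes tested. DESeq2 called the same 2 of the 10, and 366 of all 18540 genes tested. TNFAIP2 was higher in sh2-HUMT than in sh1-HUMT by a log2 difference of 0.11 (95% interval 0.07 to 0.16, adjusted p = 0.0614), and without sh1-HUMT replicate 2 the value was 0.12 (adjusted p = 0.0392). Corrected for GC content and length it was 0.06 (adjusted p = 0.371). SOD2 was higher by 0.11 (0.04 to 0.17, adjusted p = 0.183). These 2 genes, and NFKB1 in the other direction (-0.09, adjusted p = 0.448), were the 3 whose libraries did not overlap between sh2-HUMT and sh1-HUMT, where 18.4% of all genes did not. DESeq2 put the differences of TNFAIP2 and SOD2 past the threshold (adjusted p = 8.69e-07 and 0.0254). The count over all genes rests on single libraries, with 1 gene called without sh2-HUMT replicate 1 and 155 without sh1-HUMT replicate 2.

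Levels of different genes were compared on the deposited values per transcript length, read as FPKM. In sh1-HUMT libraries NFKB1 was lowest at 8.20 ± 0.186 FPKM (SD, n = 3), followed by TNFAIP3 at 8.51 ± 0.473, BIRC3 at 17.7 ± 0.867, RELB at 18.3 ± 1.62, RELA at 47.3 ± 1.21, NFKB2 at 50.9 ± 2.06, SOD2 at 59.2 ± 1.81, NFKBIA at 77.8 ± 1.59, TNIP1 at 86.7 ± 1.04 and TNFAIP2 at 217.8 ± 0.783 FPKM. Of neighbours in that order, NFKB1 and TNFAIP3 overlapped (8.02 to 8.39 and 8.01 to 8.95 FPKM), and so did BIRC3 and RELB. In sh2-HUMT libraries NFKB1 (7.65 to 7.72 FPKM) lay just below TNFAIP3 (8.02 to 8.60 FPKM), RELB and BIRC3 overlapped, and RELA at 46.0 ± 0.895 FPKM was again below NFKB2 at 50.1 ± 0.605 and SOD2 at 65.3 ± 1.67. In shNC libraries the order was NFKB1 at 8.65 ± 0.167 FPKM, TNFAIP3 at 15.7 ± 0.974, RELB at 17.9 ± 0.471, BIRC3 at 19.6 ± 0.458, NFKB2 at 41.7 ± 0.504, SOD2 at 43.8 ± 1.79, RELA at 46.9 ± 1.08, NFKBIA at 65.8 ± 1.83, TNIP1 at 78.3 ± 1.04 and TNFAIP2 at 164.0 ± 3.85 FPKM. There SOD2 and RELA were the only neighbours that overlapped. TNFAIP3 was thus level with or close to NFKB1 in the hairpin libraries and well above it in the controls, while NFKB2 and SOD2 stood above RELA in the hairpin libraries, where in the controls NFKB2 stood below RELA and SOD2 overlapped it.

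Ratios of FPKM within a library do not depend on its depth. The TNFAIP3 to NFKBIA ratio was 0.118, 0.101 and 0.110 in sh1-HUMT libraries, 0.103, 0.106 and 0.103 in sh2-HUMT libraries and 0.244, 0.219 and 0.254 in shNC libraries. The highest hairpin ratio was far below the lowest control ratio. The NFKB2 to NFKB1 ratio was 6.21 ± 0.213 in sh1-HUMT, 6.52 ± 0.0765 in sh2-HUMT and 4.83 ± 0.108 in shNC libraries (SD, n = 3 each). RELA to NFKB1 was closer between groups, 5.78 ± 0.135, 5.99 ± 0.13 and 5.43 ± 0.0202 in the same order.

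**Figure D3:**
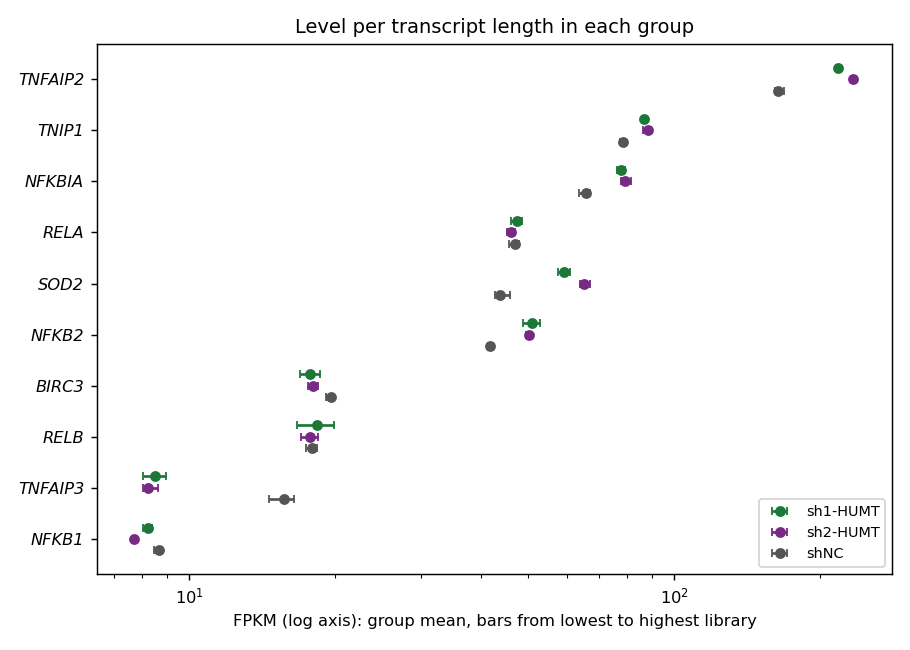
FPKM on a logarithmic horizontal axis for the 10 genes, ordered by their level in shNC libraries; points are group means and bars run from the lowest to the highest of 3 libraries. TNFAIP3 meets NFKB1 in the hairpin groups, and NFKB2 and SOD2 lie above RELA there.

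The genes whose profile over the 9 libraries was nearest to that of each called gene were found among 12559 genes of at least 5 CPM, by the root mean square difference of centred log2 CPM. CACYBP was nearest to TNFAIP3 (0.051, with log2 fold changes of -0.97 in sh1-HUMT and -0.96 in sh2-HUMT), CSPG4 to SOD2 (0.044), CCND3 to TNFAIP2 (0.018), FANCF to NFKBIA (0.019) and PBX3 to NFKB2 (0.021). AATF was nearest to NFKB1 (0.022), KIAA0319 to BIRC3 (0.030) and MAN2A2 to TNIP1 (0.011). No gene was nearest to more than 1 of the 8. The fourth nearest gene stood at 0.058 for TNFAIP3, 0.047 for SOD2, 0.028 for TNFAIP2 and 0.025 for NFKBIA. For NFKB2, NFKB1, BIRC3 and TNIP1 it stood at 0.029, 0.024, 0.033 and 0.019. Each named gene is thus 1 of several near ones, and its like fold changes follow from how it was found.

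The rest of the pathway was described by 5 lists of 91 genes in all, of which 87 were tested. Among 8 further subunit and IkB family genes, 1 was higher and 3 were lower in sh1-HUMT, and 1 was higher and 1 lower in sh2-HUMT. Over all genes tested, 15.7% were higher and 16.3% lower in sh1-HUMT, and 15.9% and 16.5% in sh2-HUMT. The medians of the log2 fold change of the 8 were -0.17 and -0.14. BCL3, a nuclear IkB protein that joins NFKB1 and NFKB2 dimers on DNA, averaged 322.1 ± 6.51, 339.8 ± 3.45 and 278.9 ± 6.43 CPM in sh1-HUMT, sh2-HUMT and shNC libraries, with log2 fold changes of 0.21 (adjusted p = 7.78e-05) and 0.29 (5.73e-06). NFKBIB, a cytoplasmic inhibitor like NFKBIA, was lower by these tests (-0.20, adjusted p = 0.0225, and -0.17, adjusted p = 0.0447). Its call in sh1-HUMT was lost without shNC replicate 1 or 3 and without sh1-HUMT replicate 2 or 3, where adjusted p ran from 0.061 to 0.0867, and with the correction for GC content and length (-0.17, adjusted p = 0.088). Its call in sh2-HUMT was lost without any single shNC or sh2-HUMT library, with adjusted p from 0.0818 to 0.138, and with upper-quartile normalization (-0.15, adjusted p = 0.0722). The count of lower genes in sh1-HUMT was 0 without shNC replicate 3 and 1 without sh1-HUMT replicate 1 or 3. In sh2-HUMT it was 0 without shNC replicate 2 or 3 or any 1 sh2-HUMT library and with upper-quartile normalization, and 2 without shNC replicate 1 or sh1-HUMT replicate 1.

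Of 14 genes of the IkB kinase complex with its upstream kinases and adaptors, 4 were higher and 3 lower under each hairpin. All 7 were the same in both. Over all genes tested, 31.9% were called in sh1-HUMT, 32.5% in sh2-HUMT and 25.1% the same way in both. MAP3K8, a kinase held in check by the NFKB1 precursor, averaged 41.0 ± 1.76, 44.0 ± 1.48 and 28.1 ± 1.38 CPM in sh1-HUMT, sh2-HUMT and shNC libraries, a log2 rise of 0.54 (adjusted p = 8.19e-06) and 0.65 (1.74e-06). IKBKE, a kinase related to the complex, rose by 0.47 and 0.40, and TAB1, an activator of the kinase MAP3K7, by 0.24 in each (adjusted p = 0.00511 and 0.00489). CHUK, a catalytic subunit of the complex, fell by 0.15 in sh1-HUMT (adjusted p = 0.0129) and by 0.24 in sh2-HUMT (adjusted p = 0.000925). Without shNC replicate 3 the first of these was -0.13 (adjusted p = 0.0556), and 0 of the 14 genes were then called lower in sh1-HUMT.

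Of 22 tested receptors and adaptors, 3 were higher and 4 lower in sh1-HUMT and 3 higher and 5 lower in sh2-HUMT, shares near the 31.9% and 32.5% called over all genes tested. The receptor TNFRSF12A and the interleukin 1 co-receptor IL1RAP had differences about as large as that of TNFAIP3. TNFRSF12A averaged 31.5 ± 2.88, 30.7 ± 0.758 and 64.0 ± 1.21 CPM in sh1-HUMT, sh2-HUMT and shNC libraries (log2 fold changes -1.02 and -1.06, adjusted p = 9.13e-08 and 6.07e-08). IL1RAP averaged 11.4 ± 0.481, 12.1 ± 0.469 and 24.8 ± 1.48 CPM (-1.12 and -1.04, adjusted p = 2.18e-07 and 3.57e-07). IL1R1, the receptor that IL1RAP joins, went the other way, at 58.0 ± 2.16, 57.7 ± 0.437 and 42.2 ± 1.28 CPM (0.46 and 0.45, adjusted p = 4.89e-06 and 5.59e-06). TRAF6, the ubiquitin ligase that relays the interleukin 1 signal, was lower (-0.33 and -0.34, adjusted p = 0.00299 and 0.0022).

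Of 16 genes of ubiquitin editing, 1 was higher and 5 were lower in sh1-HUMT, and 1 was higher and 4 lower in sh2-HUMT. The shares over all genes tested were 15.7% higher and 16.3% lower in sh1-HUMT, and 15.9% and 16.5% in sh2-HUMT. The count of higher genes in sh1-HUMT was 3 without shNC replicate 2. It was 2 with DESeq2, with upper-quartile normalization and with the correction for GC content and length. Both RBCK1 and RNF31 belong to the ligase that builds linear ubiquitin chains, and they differed in direction: RBCK1 averaged 267.5 ± 9.25, 270.4 ± 2.4 and 351.6 ± 1.78 CPM in sh1-HUMT, sh2-HUMT and shNC libraries (-0.39 and -0.38, adjusted p = 5.14e-07 and 6.44e-07), and RNF31 averaged 69.8 ± 1.25, 70.6 ± 2.0 and 54.8 ± 0.238 CPM (0.35 and 0.36, adjusted p = 1.32e-05 and 8.89e-06). TAX1BP1, an adaptor of TNFAIP3, fell by 0.25 and 0.30, and UBE2N, the conjugating enzyme of TRAF6, fell by 0.24 and 0.28 on the log2 scale.

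Of 27 other known NF-kB targets tested, 5 were higher and 12 lower in sh1-HUMT, and 6 were higher and 13 lower in sh2-HUMT. Beside these counts, 15.7% of all genes tested were higher and 16.3% lower in sh1-HUMT, and 15.9% and 16.5% in sh2-HUMT. Among genes of at least 30 CPM, a level that not all targets reach, 52.3% and 52.2% were called. The median log2 fold changes of the 27 were -0.16 and -0.18. CXCL10, TNF and IER3 were too low to test. CXCL8, a chemokine for neutrophils, stood at 40.1, 40.9 and 37.3 CPM in sh1-HUMT libraries, at 42.8, 42.4 and 42.2 CPM in sh2-HUMT libraries and at 146.4, 148.2 and 138.3 CPM in shNC libraries, lower in all 6 hairpin libraries (-1.87 and -1.76, adjusted p = 1.93e-11 and 2.93e-11). GADD45B, a stress response gene, averaged 22.8 ± 0.775, 20.4 ± 1.34 and 42.2 ± 1.67 CPM in sh1-HUMT, sh2-HUMT and shNC libraries (-0.89 and -1.05, adjusted p = 2.26e-07 and 5.55e-08). The chemokine CXCL3 (-0.58 and -0.64) and the kinase NUAK2 (-0.58 and -0.70) were lower too. Under both hairpins 5 of the targets were called higher and 12 lower. The 5 were EFNA1 (0.36 and 0.45), ZC3H12A (0.19 and 0.26), CSF1 (0.12 and 0.23), IRF1 (0.20 and 0.24) and CFLAR (0.16 and 0.15). Between the hairpins edgeR called 0 of the 87 genes, against 0.286% of all genes tested. An unadjusted p under 0.05 in edgeR was found for 13, against 11.8% of all genes tested. DESeq2 called 1 of the 87, TNFRSF10A, and 366 of all 18540 genes tested.

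**Figure D4:**
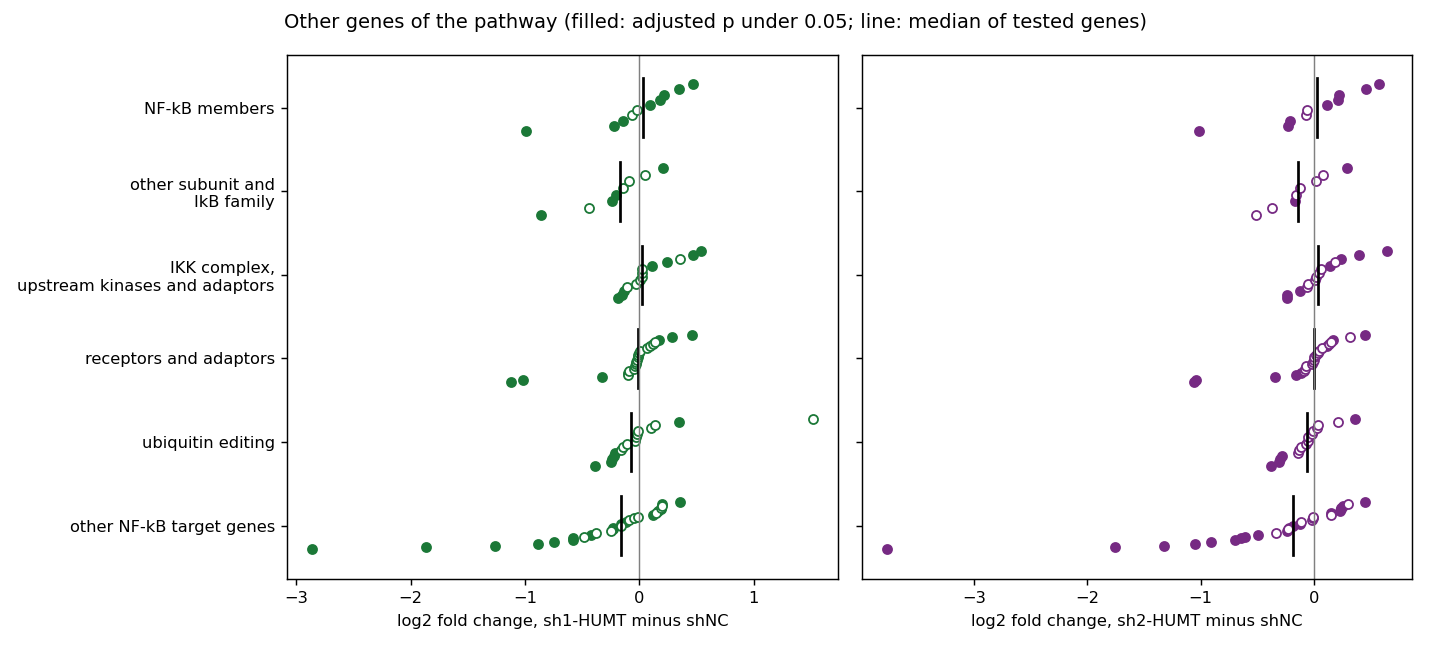
Log2 fold change of sh1-HUMT (left) and sh2-HUMT (right) minus shNC on the horizontal axis for the 10 genes and each list; each point is a gene, filled where adjusted p is under 0.05, and the vertical bar is the list's median. Every list holds called genes on both sides of 0 in each comparison, and the points furthest to the left, among the target genes, are CSF2, a growth factor gene under 1 CPM.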

How the data were processed

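The authors deposited 1 table with estimated counts and expression values per gene and library; per the labels, RNA was extracted with Trizol and sequenced by BGI500 protocols, and the submitters' processing notes list RSEM 1.2.12 for no stated step, beside DESeq2 1.4.5 and the aligners HISAT2 2.0.4 and Bowtie2 2.2.5. The authors' build was not given in the sources used here. The deposited estimated counts carry decimals (91.3% of genes, tolerance 0.005) and were rounded. The second set of deposited values has no unit in the header and was read as FPKM from its ratio to the counts; 6 columns of group averages were not used. Columns were matched to sample titles by arm and replicate number.

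Counts were tested with edgeR 4.0.16 in R 4.3.3 (TMM factors 0.968 to 1.02, filterByExpr, robust quasi-likelihood test, 9 libraries in 1 fit of 3 group means). CPM used TMM-scaled library sizes. Same-numbered libraries of different groups did not deviate together (r -0.025 to 0.05), so no pairing was used. The genes, the lists and the rule for naming genes were chosen with earlier results of these data known. The rule named all 10 genes and 1 nearest gene for each called gene (prior count 2). It also named up to 4 genes of at least 1 CPM per list. These were called the same way in both comparisons and had the smallest larger adjusted p. CSF2, TNFRSF10A, EFNA1, ZC3H12A, CSF1, IRF1 and CFLAR were named after their values were seen. The alternatives were DESeq2 1.42.0, its size factors, upper-quartile normalization, 2 other filters (none, mean count of 10), a replicate block, only 2 groups, leaving out each library, and leaving out the 2 most abundant entries. A correction for GC content and length (values for 83.9% of genes) was added after the data were seen. The steps were tested on simulated data with 1 common spread and changed genes drawn from all levels tested. They recovered 18% of 1.2-fold changes in sh1-HUMT and 14% in sh2-HUMT, and 90% and 92% of 2-fold changes. Of unchanged genes, 0.033% and 0.044% were called. Small changes were thus often missed there, and these shares are not those of the 10 genes.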

Additional observations from a re-analysis of the deposited data

How the results depend on the processing

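Each of the 10 genes was recomputed under 18 alternatives per comparison, and none of the called differences against shNC changed direction. TNFAIP3 stayed between -1.04 and -0.96 on the log2 scale in sh1-HUMT and between -1.05 and -0.97 in sh2-HUMT. NFKB1 in sh1-HUMT ran from -0.15 to -0.12 as single libraries were left out and was -0.14 with DESeq2, where its call was lost. With the correction for GC content and length, RELA in sh2-HUMT was -0.10, past the threshold, and TNIP1 in sh2-HUMT was 0.06, no longer past it; the cause was not tested. For sh2-HUMT against sh1-HUMT, DESeq2 put TNFAIP2 (0.11) and SOD2 (0.11) past the threshold, so 2 of the 10 genes were called in place of 0; leaving out single libraries gave 0 or 1, with TNFAIP2 between 0.10 and 0.12, and the correction for GC content and length gave 0.06 for TNFAIP2. The number of genes called between the hairpins was 53, against 366 with DESeq2, 29 with the replicate block, 35 with only the 2 groups and 1 to 155 without single libraries, so calls between the hairpins depend on the tool and on the libraries. The replicate block, on numbers that do not pair the samples, changed no call of the 10 genes; 3 further subunit and IkB family genes were lower in sh2-HUMT with it, in place of 1, and genes called over all numbered 5717 in sh1-HUMT and 5778 in sh2-HUMT with it. No scaling moved the median over all genes beyond 0.019. The target genes CXCL10, TNF and IER3 did not pass the filter on low counts. IER3 averaged 0.0 CPM in sh1-HUMT and in shNC libraries and 0.392 ± 0.679 CPM in sh2-HUMT libraries, and the cause was not tested.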
